A study of Arabidopsis thaliana with 24 samples.

Results

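Transcripts of 9 Arabidopsis thaliana genes that perceive light or act directly below the light receptors were followed in tetraploid and diploid seedlings. The genes were taken by locus code. They are the phytochromes PHYA (AT1G09570), PHYB (AT2G18790), PHYC (AT5G35840), PHYD (AT4G16250) and PHYE (AT4G18130), the cryptochromes CRY1 (AT4G08920) and CRY2 (AT1G04400), and COP1 (AT2G32950) and SPA1 (AT2G46340). All 9 were found in both tables used here, among 24900 identifiers listed in at least 1 of them. RNA-seq libraries came from tetraploid Col-0 (4xCol), diploid Col-0 (2xCol), tetraploid Ler (4xLer) and diploid Ler (2xLer) seedlings, with 2 libraries each. Seedlings were 2 weeks old and soil-grown at 22 °C, with either 16 h or 8 h of light a day, and which of these applied here is not given. The labels give neither the hour of harvest nor the origin of the tetraploid lines. They do not describe replicates as separate cultures either, and the p-values then reflect only how far these libraries spread, which may be technical.

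Phytochromes are red and far-red light receptors that switch between an inactive and an active form when they absorb light. PHYA acts in far-red and very dim light and its protein is lost in light, PHYB is the main receptor of red light in green plants, and PHYC, PHYD and PHYE add to red light and shade responses. Cryptochromes are blue light receptors; CRY1 acts mainly in seedling greening and growth and CRY2 in dim blue light and in flowering. COP1 is a RING-type ubiquitin ligase that works with SPA proteins such as SPA1 to mark light-promoting transcription factors, among them HY5, for degradation. Active phytochromes and cryptochromes bind the COP1 and SPA complex and inhibit it, so the 9 genes form the receptor layer and the first repressor layer of one pathway.

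Each table gives 1 mean normalized count per gene over its 4 libraries, with the authors' log2 fold change, its standard error and an adjusted p. A gene is called where that adjusted p is under 0.05. Its direction, absent from the headers, was taken as tetraploid over diploid. The grounds are FLC, which the study's tetraploid Col-0 is known to express strongly, and the weak ESP and strong ESM1 expression that is usual in diploid Col-0. The Ler table was read the same way because it is named the same way. Counts are relative to all transcripts of a library, so a change in RNA per cell is not measured. Libraries averaged 22138532 normalized reads in the Ler table and 22343366 in the Col table.

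The Col lines differed in more than the light genes. ESP, a glucosinolate breakdown gene, had an implied mean count of 64546 in 4xCol and 524 in 2xCol, from the authors' deposited table. ESM1, a second gene of that pathway, had 992 in 4xCol and 15073 in 2xCol in the same reading of the authors' deposited table. In Ler, ESP had 48260 in 4xLer and 32266 in 2xLer, and ESM1 had 900 in 4xLer and 855 in 2xLer. For both genes the 4xCol level lay nearer to the Ler levels than to 2xCol, as a description, since ecotypes were normalized separately. Both genes also served to set the direction of the fold change. Which Col line lay nearer to Ler therefore follows from that choice. In 4xCol, 103 called genes had no implied reads (under 0.5 over both libraries), and 44 had none in 2xCol, out of 3290 calls. In Ler the numbers were 0 in 4xLer and 12 in 2xLer, out of 952 calls. Testing reached down to genes averaging 1.16 counts in Col but only 7.23 in Ler. Sparse genes that could be called in Col were thus left out in Ler, so these numbers do not compare the ecotypes. Ploidy and any other difference in line origin cannot be told apart in Col. The seedling label was met by the 5 leaf markers, with mean counts between 34145 and 619046 in Ler and between 34475 and 570856 in Col. The 3 flower markers found in each table stayed at or below 4.57 in Ler and 5.73 in Col. FLC, the flowering repressor, had a log2 fold change of 2.63 ± 0.17 in Col in the authors' deposited table. Its sign is no finding here, since FLC also served to set the direction.

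In tetraploid Col-0, 3 phytochrome genes and both cryptochrome genes were lower than in diploid Col-0, and COP1 and SPA1 were not called. Of the 9 genes, 5 fell and 0 rose in 4xCol, where 8.23% of 21420 tested genes were called lower, 7.13% higher and 15.4% in either direction. In 4xLer, 0 of the 9 were called by the authors' DESeq2 test and 1 had an unadjusted p under 0.05, where 5.1% of 18683 tested genes were called. The median log2 fold change of the 9 genes was −0.08 in Ler and −0.33 in Col, beside −0.0061 and −0.0032 over all tested genes. Because RNA came from seedlings and not from sorted cells, fewer cells of a type and less RNA per cell cannot be told apart.

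**Figure D1:**
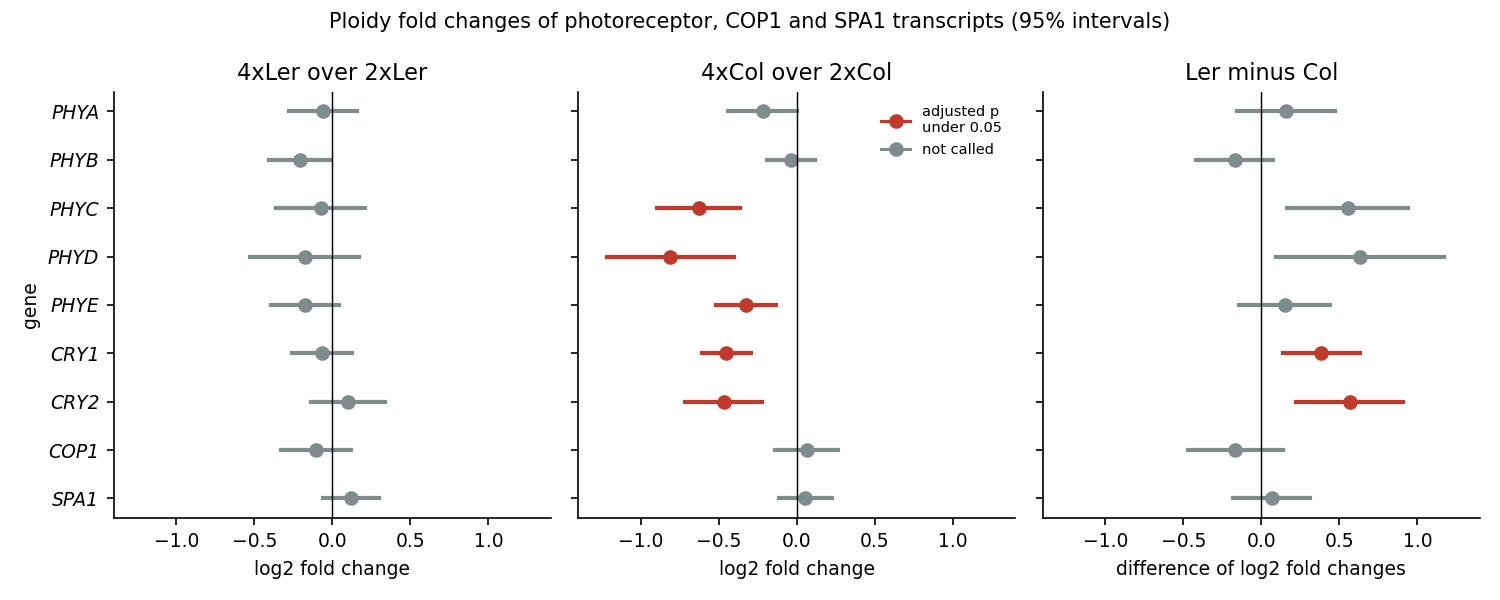
Log2 fold changes with 95% intervals (x axis) for the 9 genes (y axis) in 4xLer over 2xLer, in 4xCol over 2xCol, and the difference of both. Red marks an adjusted p under 0.05: 5 genes lie below 0 in Col, none is red in Ler, and CRY1 and CRY2 are red in the difference.

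Among the phytochromes, PHYD had the lowest fold change in Col. Its implied mean count was 180.3 in 4xCol and 316 in 2xCol, a fall of 0.81 ± 0.21 on the log2 scale in the authors' deposited table (SE, adjusted p = 0.0013, 2 libraries per ploidy). That is 43.0% lower in 4xCol, with a 95% interval from 57.0% to 24.3% lower. PHYC had 569 in 4xCol and 880.1 in 2xCol, a log2 fold change of −0.63 ± 0.14 in the authors' deposited table (adjusted p = 6.3e-05), or 35.3% lower. PHYE had 1159 in 4xCol and 1452 in 2xCol, a smaller log2 fold change of −0.33 ± 0.10 in the authors' deposited table (adjusted p = 0.0097), or 20.2% lower. Whether these 3 called phytochromes differ as a group from PHYA and PHYB was not tested.

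PHYB, the main red light receptor, had 2674 in 4xCol and 2744 in 2xCol, with a log2 fold change of −0.04 ± 0.08 in the authors' deposited table (adjusted p = 0.87). Its 95% interval ran from −0.19 to 0.12, so a fall of the size seen for PHYC lay outside it. PHYA had 928 in 4xCol and 1080.1 in 2xCol, a log2 fold change of −0.22 ± 0.11 in the authors' deposited table (adjusted p = 0.22, interval −0.44 to 0.0042). PHYA was therefore not called, with an interval that also holds a fall like that of PHYE. The interval of PHYB did not overlap those of PHYC, which ran from −0.90 to −0.36, or PHYD, which ran from −1.22 to −0.40. It overlapped that of PHYE, which ran from −0.52 to −0.13. These genes share libraries, and no test between genes was run. PHYB and PHYD are close relatives, and reads that could match both were not examined here.

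Both cryptochromes fell by similar proportions in Col. CRY1 had 2156 in 4xCol and 2948 in 2xCol, a log2 fold change of −0.45 ± 0.08 in the authors' deposited table (adjusted p = 3.3e-07). It was 26.9% lower in 4xCol (interval 34.4% to 18.6% lower) and stood at rank 812 of 21420 genes by p. CRY2 had 659 in 4xCol and 911 in 2xCol, a log2 fold change of −0.47 ± 0.13 in the authors' deposited table (adjusted p = 0.0024), or 27.7% lower (interval 39.1% to 14.2% lower).

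The ligase genes gave no call in Col. COP1 had 1435 in 4xCol and 1375 in 2xCol, a log2 fold change of 0.06 ± 0.10 in the authors' deposited table (adjusted p = 0.82, interval −0.14 to 0.26). SPA1, whose protein forms the active complex with COP1, had 2594 in 4xCol and 2499 in 2xCol (authors' deposited table, 0.05 ± 0.09, adjusted p = 0.81, interval −0.11 to 0.22). On the linear scale these intervals end at 9.22% and 7.63% below the diploid, so falls as large as those of the cryptochromes lay outside them.

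**Figure D2:**
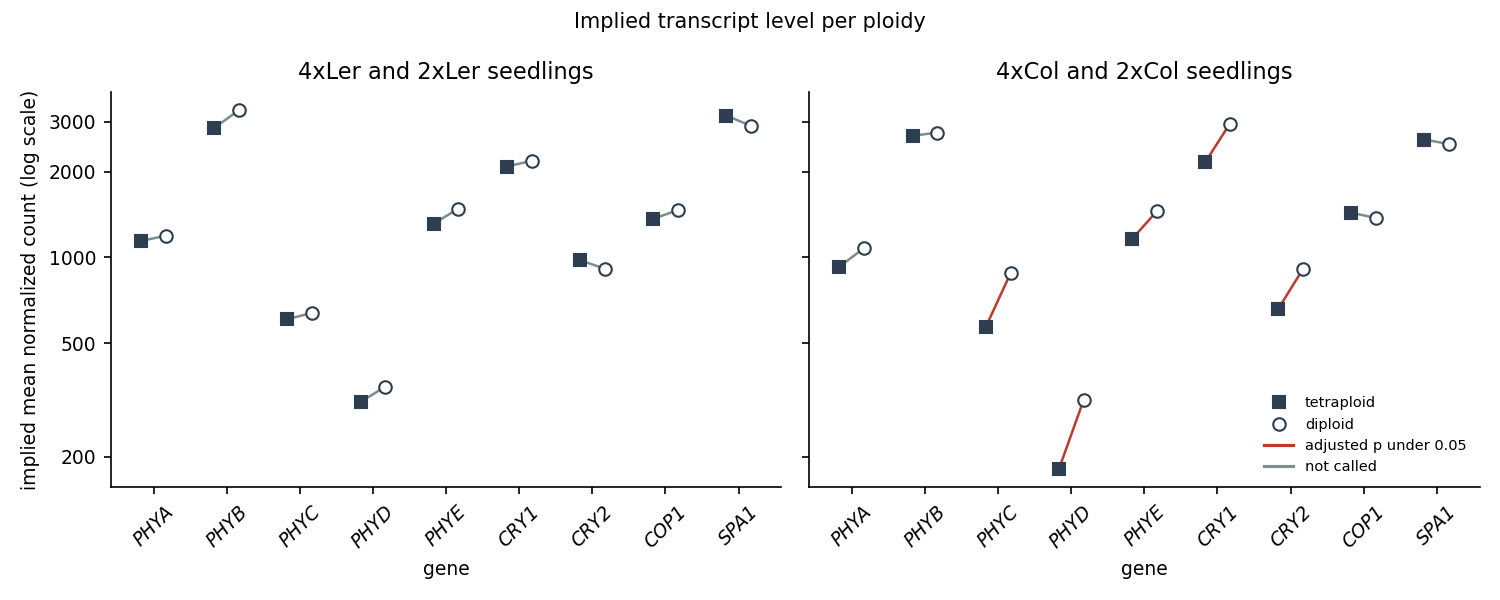
Implied mean normalized count per ploidy (y axis, log scale) for each gene (x axis) in Ler and in Col; squares are tetraploid, open circles diploid, with no error since the tables hold 1 mean per gene. Red lines join the 5 genes called in Col, each with the square below the circle.

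In Ler the same genes lay close to each other in both ploidies. PHYB had the lowest log2 fold change, with 2850.3 in 4xLer and 3294 in 2xLer (authors' deposited table, −0.21 ± 0.10, unadjusted p = 0.036, adjusted p = 0.26). It was the 1 gene of the 9 with an unadjusted p under 0.05 from the authors' DESeq2 test, where 15.8% of tested genes had one. PHYE had 1314 in 4xLer and 1484 in 2xLer, and PHYD 311 in 4xLer and 352 in 2xLer. Both had a log2 fold change of −0.18 in the authors' deposited table, with SE of 0.11 for PHYE and 0.18 for PHYD. PHYA had 1143 in 4xLer and 1192 in 2xLer (authors' deposited table, −0.06 ± 0.11), and PHYC 607 in 4xLer and 639 in 2xLer (−0.08 ± 0.14).

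The Ler cryptochromes and ligase genes had intervals on both sides of 0. CRY1 had 2085 in 4xLer and 2183 in 2xLer, a log2 fold change of −0.07 ± 0.10 in the authors' deposited table (adjusted p = 0.86, interval −0.26 to 0.12). CRY2 had 978 in 4xLer and 913 in 2xLer (authors' deposited table, 0.10 ± 0.12, adjusted p = 0.82, interval −0.14 to 0.34). For both cryptochromes, the fall seen in Col lay outside the Ler interval. COP1 had 1365 in 4xLer and 1466 in 2xLer (authors' deposited table, −0.10 ± 0.11, adjusted p = 0.78). SPA1 had 3149 in 4xLer and 2898 in 2xLer, a log2 fold change of 0.12 ± 0.09 in the authors' deposited table (adjusted p = 0.62).

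Whether the tetraploid over diploid fold change differed between ecotypes was tested gene by gene on the Ler minus Col difference of log2 fold changes. A two-sided Wald test was used, adjusted over 21361 genes. In Col, ploidy and line origin cannot be told apart, so a difference here is not shown to be one of ploidy response. The test called 2 of the 9 genes, where 8.71% of all genes were called, and both were cryptochromes. CRY2 differed by 0.57 ± 0.18 (0.10 in Ler, −0.47 in Col, adjusted p = 0.018, interval 0.22 to 0.91). CRY1 differed by 0.39 ± 0.13 (−0.07 in Ler, −0.45 in Col, adjusted p = 0.029, interval 0.14 to 0.63).

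PHYC and PHYD had differences as large, with wider errors. PHYC differed by 0.55 ± 0.20 (Wald test, adjusted p = 0.057) and PHYD by 0.63 ± 0.27 (Wald test, adjusted p = 0.15), so neither was called. PHYE, called in Col alone, differed by 0.15 ± 0.15 (Wald test, adjusted p = 0.73), and its fold change is not shown to differ between ecotypes. The differences of PHYA, PHYB, COP1 and SPA1 lay between −0.17 and 0.16, with adjusted p of 0.56 or more in the same Wald test.

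Levels set across ecotypes are descriptions, since the tables were normalized separately. CRY1 in 4xCol, at 2156, lay between 4xLer at 2085 and 2xLer at 2183, while 2xCol stood apart at 2948. PHYC in 4xCol, at 569, was likewise nearer to 4xLer at 607 and 2xLer at 639 than to 2xCol at 880.1. For PHYC, PHYD, PHYE and CRY2, and for the uncalled PHYA and PHYB, the 4xCol level was below all 3 other groups. For CRY2 the other groups were 978 in 4xLer, 913 in 2xLer and 911 in 2xCol, which lie closer together than the standard error of its fold change. Levels were not ranked between genes, because no transcript length was used here.

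**Figure D3:**
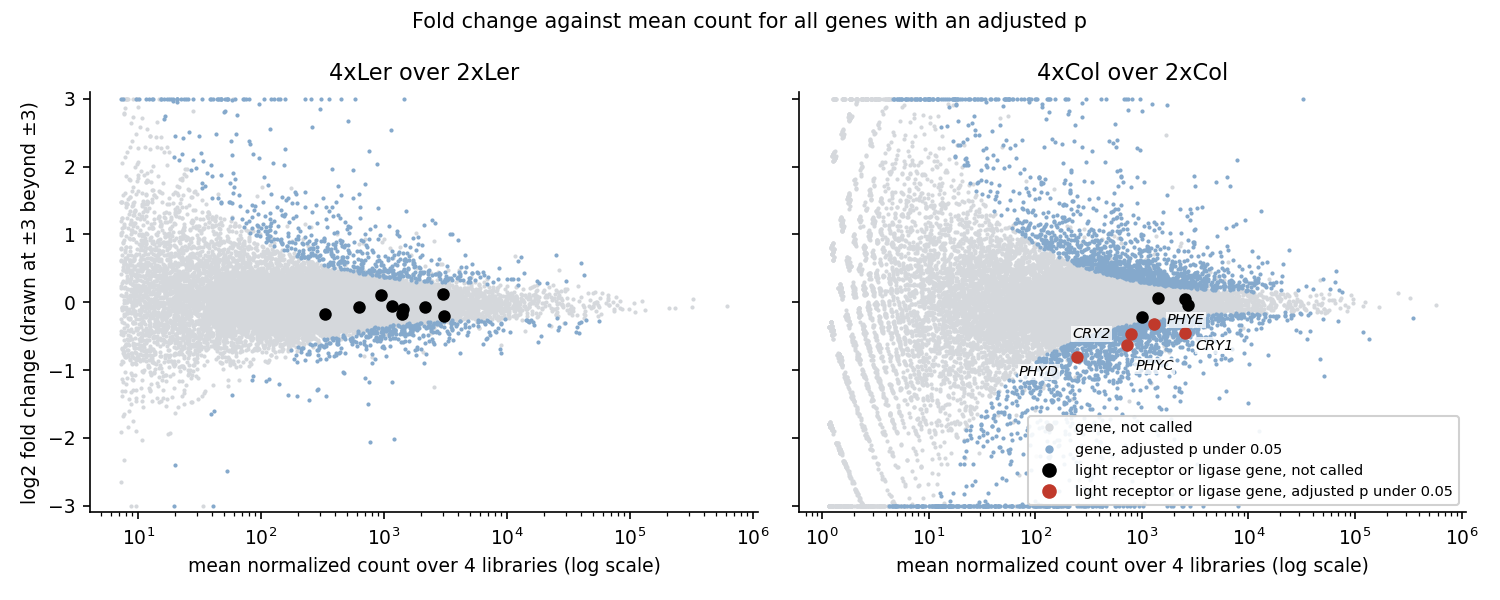
Log2 fold change (y axis) against mean normalized count (x axis, log scale) for all genes with an adjusted p in Ler and in Col, with the 9 genes as large dots. In Col the 5 red dots lie between −0.81 and −0.33 among other called genes; in Ler all 9 dots are black and lie between −0.21 and 0.12.

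Depth was not the main limit for these genes. Mean counts ran from 331 to 3072 in Ler and from 248 to 2709 in Col. Counting error made up 6.89% to 19.9% of the variance of the fold change in Ler and 11.0% to 20.9% in Col. The remaining variance corresponds to a variation between replicates of 6.09% to 11.0% in Ler and 5.07% to 12.8% in Col, as fitted by DESeq2 with sharing across genes.

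Called genes around the 5 fallen genes were about as frequent as elsewhere. Among the 20 nearest tested genes on the chromosome, 10 on each side, 5 were called in Col around CRY1, 4 each around PHYC and PHYD, 3 around PHYE and 0 around CRY2. That is 16.0% of 100 neighbours, beside 15.4% of all tested genes. Chromosome medians of the log2 fold change, over genes whose mean count reached 100, lay between −0.04 and 0.01 in Ler and between −0.03 and 0.03 in Col. PHYE overlaps SSP4b (AT4G18140) in the reference annotation, and the strand setting of the counting is not known here. SSP4b had a log2 fold change of −0.33 ± 0.24 in Col in the authors' deposited table (adjusted p = 0.47), at a mean count of 183 against 1306 for PHYE. The part of shared reads in the value of PHYE was not tested.

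The rest of the light pathway was followed through 8 lists with 68 genes. In Ler 63 of them were found and 3 fell and 0 rose; in Col all 68 were found and 4 rose and 4 fell. Of those with an adjusted p, the calls were 5.08% of 59 genes in Ler and 12.3% of 65 genes in Col, beside 5.1% and 15.4% of all tested genes. The ecotype difference was called by the Wald test for 9 of the 63 genes found in both tables, or 14.3%, beside 8.71% of all genes. Their median log2 fold change was 0.04 in Ler and −0.05 in Col.

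Partners of COP1 and SPA1 were mostly uncalled within each ecotype. Among 10 genes of the SPA family, the CUL4-DDB1 ligase core and its regulators, 1 fell in Ler and 0 were called in Col by the authors' DESeq2 test, where 4 had an unadjusted p under 0.05, beside 24.2% of all tested genes. The fallen gene was RUP2, a feedback repressor of the UV-B receptor UVR8, with −0.31 ± 0.09 in Ler in the authors' deposited table (adjusted p = 0.03). In the ecotype difference 3 of the 10 partners were called by the Wald test, beside 8.71% of all genes. They were RUP2 (−0.40 ± 0.13, Wald test, adjusted p = 0.025), and DDB1B and SPA2, both named after their values were seen. DDB1B, a subunit of the CUL4 ligase core, differed by −0.88 ± 0.24 (−0.56 in Ler, 0.31 in Col, Wald test, adjusted p = 0.0044). SPA2, a relative of SPA1, differed by −0.50 ± 0.17 (−0.27 in Ler, 0.24 in Col, Wald test, adjusted p = 0.046), and lost that call with recentred fold changes (adjusted p = 0.056). Of the COP9 signalosome subunits, whose complex recycles cullin ligases, 0 of 9 in Ler and 0 of 10 in Col were called by the authors' DESeq2 test, with 1 in Ler and 0 in Col at an unadjusted p under 0.05.

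HY5, a bZIP activator of light responses that COP1 marks for degradation, rose in Col. Its implied mean count was 1377 in 4xCol and 806 in 2xCol, a log2 fold change of 0.77 ± 0.11 in the authors' deposited table (adjusted p = 3.4e-10). In Ler it was not called (authors' deposited table, −0.11 ± 0.10, adjusted p = 0.71), and the difference was −0.88 ± 0.15 (Wald test, adjusted p = 4.4e-07). Of the 4 listed factors degraded through COP1, HY5 was the 1 called in Col and 0 were called in Ler by the authors' DESeq2 test, with 1 in Ler at an unadjusted p under 0.05. Over all tested genes, 15.4% were called in Col and 5.1% in Ler.

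PIF factors are bHLH proteins, several of which promote elongation and are removed when phytochromes are active. Of the listed PIF and related genes, 1 of 8 fell in Ler and 2 of 10 fell in Col, and 0 rose in either. Over all tested genes, 5.1% were called in either direction in Ler, and 8.23% were called lower in Col. PIF4 had 322 in 4xCol and 639 in 2xCol, a log2 fold change of −0.99 ± 0.15 in the authors' deposited table (adjusted p = 4.6e-09). PIF1 fell by 0.56 ± 0.16 in Col (authors' deposited table, adjusted p = 0.0045), and PIF7 fell by 0.44 ± 0.14 in Ler (authors' deposited table, adjusted p = 0.026). PIF4 differed between ecotypes by 1.01 ± 0.26 (Wald test, adjusted p = 0.0029), while PIF7 did not pass that test (adjusted p = 0.26).

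Genes that make the phytochrome chromophore were measured too, since a phytochrome without it cannot sense light. Of 5 such genes, 2 rose in Col and 0 were called in Ler by the authors' DESeq2 test, with 1 in Ler at an unadjusted p under 0.05. Over all tested genes, 7.13% were called higher in Col and 5.1% were called in Ler. HO3, a heme oxygenase gene, had 218 in 4xCol and 33.3 in 2xCol, a log2 fold change of 2.71 ± 0.32 in the authors' deposited table (adjusted p = 1.5e-15). HO2 rose by 0.48 ± 0.11 in Col (authors' deposited table, adjusted p = 0.00012). HY1, the heme oxygenase gene with the main role in chromophore synthesis, gave −0.08 ± 0.10 in Col and HY2, the last enzyme of the route, 0.20 ± 0.14 in the authors' deposited table, both uncalled.

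**Figure D4:**
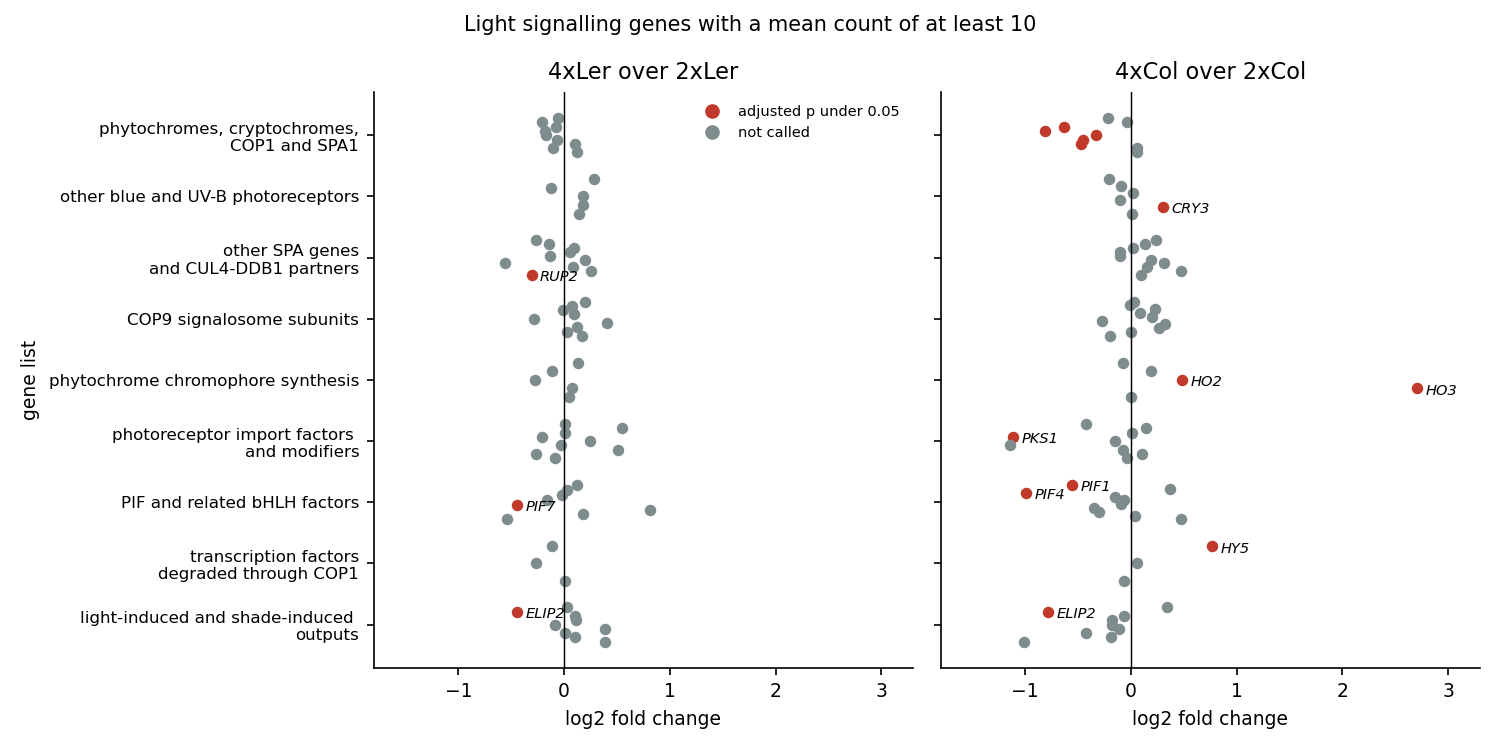
Log2 fold change (x axis) of single genes in the 9-gene set and 8 other light signalling lists (y axis), in Ler and in Col, limited to mean counts of 10 or more. Red dots have an adjusted p under 0.05; the Col panel has 5 red dots in the top row, all below 0, and HO3 farthest to the right at 2.71.

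Other receptors and modifiers gave single calls, where 15.4% of all tested genes were called in Col and 5.1% in Ler. CRY3, a DASH-type cryptochrome outside the blue light signalling of CRY1 and CRY2, rose by 0.31 ± 0.09 in Col (authors' deposited table, adjusted p = 0.011), the 1 called of 7 other blue and UV-B receptors. In Ler 0 of 6 were called by the authors' DESeq2 test, with 1 at an unadjusted p under 0.05. PHOT1, a blue light receptor of phototropism named after its values were seen, differed between ecotypes by 0.48 ± 0.13 (0.28 in Ler, −0.20 in Col, Wald test, adjusted p = 0.0048). It was the 1 called of 6 such receptors in that test. Within each ecotype PHOT1 was not called by the authors' DESeq2 test (adjusted p = 0.11 in Ler and 0.056 in Col). PKS1, whose protein binds phytochromes, fell by 1.11 ± 0.22 in Col (authors' deposited table, adjusted p = 1.1e-05), the 1 called of 10 import factors and modifiers. In Ler 0 of 9 of those were called by the authors' DESeq2 test, with 1 at an unadjusted p under 0.05. Of 12 listed light and shade outputs, ELIP2, a chlorophyll-binding protein gene of light stress, was the 1 called in each ecotype. It fell by 0.45 ± 0.08 in Ler and by 0.78 ± 0.17 in Col in the authors' deposited table, with adjusted p of 3.8e-06 and 7.4e-05, a difference of 0.33 ± 0.19 (Wald test, adjusted p = 0.35).

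Clock transcripts also moved, and transcripts of phytochromes and cryptochromes are known to cycle over the day. Of 10 clock genes, 1 rose and 1 fell in Ler, and 2 rose and 3 fell in Col, where 5.1% of all tested genes were called in Ler and 15.4% in Col. LHY, a morning clock gene, had −0.36 ± 0.08 in Ler and 0.29 ± 0.07 in Col in the authors' deposited table. PRR9, a daytime clock gene, had 0.56 ± 0.12 in Ler and −0.53 ± 0.12 in Col there, opposite in sign to LHY in both ecotypes. CCA1 rose in Col (0.29 ± 0.07), while PRR7 (−0.84 ± 0.13) and GI (−0.42 ± 0.13) fell there, per the authors' deposited table; GI was named after its values were seen. Their part in the photoreceptor values was not tested. Of the root and seed markers, SCR fell in Ler by 0.41 ± 0.10 and SHR rose in Col by 0.47 ± 0.15 in the authors' deposited table. The root marker COBL9 had mean counts of only 1.92 in Ler and 1.42 in Col and was not called. EXPA7 and RSL4, also listed as root markers, were found in neither ecotype. SCR averaged 1669 counts in Ler and 1552 in Col, and SHR 548 in Ler and 493 in Col. With such mixed values, root content is not measured by this list. The 3 seed markers found had summed mean counts of only 6.19 in Ler and 21.8 in Col. Of these, 2 were called higher in Col in the authors' deposited table, OLEO1 (6.02 ± 1.94) and OLEO2 (5.10 ± 1.77). LHCA1, a leaf marker, fell by 0.28 ± 0.07 in Ler in the authors' deposited table, the 1 called of 5, and 0 of 5 were called in Col by the authors' DESeq2 test, with 1 at an unadjusted p under 0.05. The part of these markers in the photoreceptor values was not tested.

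CRY1 had the largest Wald statistic of the 9 genes. By distance between pairs of log2 fold changes, over these 2 comparisons alone, the nearest of 13315 other genes were AT5G42360 at 0.011, AT2G15280 at 0.012 and AT4G26410 at 0.016. AT4G26410 had −0.08 ± 0.14 in Ler and −0.45 ± 0.12 in Col in the authors' deposited table. As many as 307 genes lay within 0.13, the combined standard error of CRY1, so these names carry little resolution.

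The calls in Col depended on the null used for the Wald statistic. Against an empirical null, whose width is set by all genes whose mean count reached 100, changed ones included, CRY1 kept its call (adjusted p = 0.016). PHYC (adjusted p = 0.091), PHYD (0.24), PHYE (0.44) and CRY2 (0.29) lost theirs in that Wald test, as did the ecotype differences of CRY2 (0.46) and CRY1 (0.54). With no count filter, a filter at a mean count of 10 or recentred fold changes, the Wald test gave adjusted p of at most 0.0105 for the 5 Col calls and 0.029 for both differences. Of the other light genes, HO3, PIF4 and HY5 in Col and ELIP2 in Ler kept their calls against the empirical null. Those of CRY3 (adjusted p = 0.48), HO2 (0.12), PKS1 (0.051), PIF1 (0.35) and ELIP2 (0.096) in Col and of RUP2 (0.44) and PIF7 (0.42) in Ler ended in that Wald test. The differences of HY5 (Wald test, adjusted p = 0.01), HO3 (0.00021) and HO2 (0.048) kept their calls. Those of PKS1 (0.62), PIF4 (0.24), PHOT1 (0.29), DDB1B (0.33), SPA2 (0.71) and RUP2 (0.59) did not in the same Wald test. Among the clock genes, PRR9 in Ler and PRR7 in Col kept theirs, and LHY in both ecotypes and CCA1, PRR9 and GI in Col did not.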

How the data were processed

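The 8 RNA-seq libraries were compared through 2 tables of the authors' DESeq2 results, 1 per ecotype. HISAT2, Subread, DESeq2 and the build TAIR10 appear without versions, per the submitters' processing notes. Per the file headers, the authors give each gene a mean normalized count, which is a signal averaged over the 4 libraries of a table. The deposited log2 fold change and its standard error are on the log2 scale, and the deposited Wald statistic is a score equal to their ratio. The deposited p-values are those of the Wald test, raw and adjusted by the Benjamini-Hochberg method, with the adjusted one left blank for low counts. The tables hold no values per library, so the main test was the authors' own, at an adjusted p under 0.05.

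The implied mean count of a ploidy was computed from the mean count and fold change, giving both ploidies equal weight in the mean. The replicate variation was computed from the standard error after taking off counting error. A two-sided Wald test gave the Ler minus Col difference, adjusted over 21361 shared identifiers (Python 3.11.15, scipy 1.17.1), and was tested on simulated data. The simulated errors were drawn from the deposited standard errors, so that run cannot show whether those are wide enough. Identifiers were matched to a RefSeq gene table of the assembly TAIR10.1, used for names, gene order and overlaps. Of 104 entries in 14 gene lists, 99 matched by locus and symbol, and 5 were left out. The genes and lists were chosen with earlier results of these data known. All 9 genes of the set are named, as are the 3 genes nearest to the one with the largest Wald statistic. Of each list, the genes passing the threshold are named, up to 4 per table. Beyond that rule, GI, PHOT1, DDB1B and SPA2 were named after their values were seen. Alternatives were no count filter, a mean count of at least 10, recentred fold changes and an empirical null. Data of the 16 ChIP-seq libraries are not analysed here.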

Additional observations from a re-analysis of the deposited data

Results flagged for a closer look

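CRY1 and CRY2 were singled out because the tetraploid over diploid fold change differed between Ler and Col by the Wald test of the difference itself. Ploidy and line origin cannot be told apart in the Col part of that difference. The Ler minus Col difference of log2 fold changes was 0.39 for CRY1 and 0.57 for CRY2. The same test singled out 9 of the 63 other light genes found in both tables: PHOT1 (0.48), SPA2 (−0.50), DDB1B (−0.88), RUP2 (−0.40), HO2 (−0.76), HO3 (−2.63), PKS1 (1.35), PIF4 (1.01) and HY5 (−0.88). Among clock genes the differences were −0.66 for LHY, 1.09 for PRR9 and 0.78 for PRR7. Among markers and line checks they were −0.32 for LHCA1, −0.56 for SCR, −2.21 for FLC, −6.36 for ESP and 4.00 for ESM1. The seed markers OLEO1 (−7.94 ± 2.75, Wald test, adjusted p = 0.046) and OLEO2 (−9.94 ± 2.90, adjusted p = 0.011) were also called. Their mean counts were low, at 2.48 in Ler and 5.63 in Col for OLEO1 and 2.72 in Ler and 8.26 in Col for OLEO2. Over all 21361 genes the test called 8.71%. No sample could be set against its group, since the tables hold no values per library.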

How the results depend on the processing

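No paired analysis was possible because the tables hold no values per library, and for the same reason no replicate was left out; levels per transcript length were not run either. For the 9 genes, the count called stayed at 0 in Ler and 5 in Col with no count filter, with a mean count of at least 10 and with recentred fold changes, and recentring took off medians of −0.017 in Ler and 0.0044 in Col. Under the empirical null the count was 0 of 9 in Ler, 1 of 9 in Col and 0 of 9 for the ecotype difference. For that difference, 2 of the 9 had an unadjusted p under 0.05 in the Wald test under this null, beside 7.9% of all genes. Without it, 4 of the 9 had one, beside 18.2% of all genes. The other light lists then had 1 call in Ler, against 3, and 3 in Col, against 8. Over all genes that null left 273 calls in Ler, against 952, 1043 in Col, against 3290, and 525 differences, against 1860. Its statistics were divided by a robust SD of 1.35 in Ler and 1.67 in Col. The difference for PHYC passed the threshold with a mean count of at least 10 (Wald test, adjusted p = 0.049) and with recentring (0.048). None of the 9 genes and no called list gene reversed its sign under any of these 4 settings.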
